A study of Homo sapiens with 4 samples.

Results

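The genes described here are 43 genes of mitosis, whose products build the spindle and the kinetochores, run the spindle checkpoint and divide the cell. They were taken by name from the RefSeq rows of the gene tables and make up 43 of the 25027 gene symbols or identifiers in those tables. The rule uses names and no threshold on a measured value, but the list was drawn up with earlier results of these data known. The cells were RPE1, a line of human retinal pigment epithelial cells immortalised with telomerase, grown as an adherent culture. Cultures were transfected with Lipofectamine RNAi MAX and 10 nM Stealth siRNA, either a negative control or 1 sequence against SAF-A, the nuclear RNA-binding protein encoded by HNRNPU. Total RNA depleted of ribosomal RNA was sequenced after 24 h and after 48 h, giving 4 groups, control siRNA and SAF-A siRNA at each time, with 1 library in each. All 4 groups therefore share the transfection, and the SAF-A groups rest on a single siRNA sequence. With 1 library per group there is no spread between cultures and no test of any difference.

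Mitosis is driven by the kinase CDK1 bound to cyclins, which starts the condensation of chromosomes and the assembly of the spindle. Kinetochores, protein plates built on centromeric chromatin, attach the chromosomes to spindle microtubules, and the checkpoint holds back the anaphase-promoting complex until each chromosome is attached. That complex then marks securin and cyclin B for destruction, sister chromatids separate, and kinesins and the actomyosin ring complete the division. Most of these genes are transcribed late in the cell cycle, and the amount of their RNA in a culture follows the share of cells in that phase as well as the RNA per cell. In bulk RNA fewer cells in mitosis and less RNA in each cell cannot be told apart.

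Values are FPKM, fragments per kilobase of transcript, scaled to the mapped reads of the library, as deposited and summed over the RefSeq transcripts of a gene. A difference is the difference in log2(FPKM + 1), which understates the change of low genes, and a gene is counted as higher or lower by 2-fold when this difference reaches 1 or -1. The interval given with a level sums the lower and upper 95% bounds that the authors deposited for each transcript, so it is wider than a true interval for genes with several transcripts. It covers the error within a library and not the difference between cultures. Counts over the 43 members are read against the share of 11053 genes (averaging 1 FPKM or more over the libraries, spliced length 300 nt or more) that met the same condition. The counts by role below have the same shares at 48 h as their background: 18.5% lower by 2-fold, 14.3% higher by 2-fold and 27.1% lower with intervals apart. All 43 members passed this filter, and 42 were at 1 FPKM or more in every library. Members are not replicates of a condition, since all of them were read from the same 4 libraries.

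The libraries held 28083822 mapped reads (control siRNA at 24 h), 30701282 (SAF-A siRNA, 24 h), 28586051 (control siRNA, 48 h) and 1216740 (SAF-A siRNA, 48 h), as implied by the coverage and FPKM of each row. The SAF-A 48 h library is thus far shallower than the others, and every 48 h value below rests on it. An estimated 2864 of its reads came from the 43 members, a median of 49.1 per gene, against 141769 to 157788 in the other libraries; 3 members had under 10 reads there and 11 had under 20. RNAs under 300 nt took 50.9% to 63.8% of the summed FPKM, with the lowest share in the SAF-A 48 h library. HNRNPU itself had 91.2 and 84.6 FPKM in the control libraries (24 h, 48 h) and 10.4 and 9.24 FPKM in the SAF-A libraries, which thus held 11.4% and 10.9% of the control level, as their labels say. Of 10 markers of retinal pigment epithelium, MITF and OTX2 were above 1 FPKM in every library, while RPE65, RLBP1, TYR, PMEL, SERPINF1 and BEST1, genes of the mature tissue, stayed under 1 FPKM. KRT18 and KRT8 were also listed above 1 FPKM, but their rows were not marked OK by the authors in the 3 deeper libraries and carry bounds that do not contain their levels, so they were not compared between libraries. No row of a member had such a mark. Markers of leukocytes, endothelium, muscle, neurons and cadherin 1 epithelium were at or near 0 in all libraries, the highest being PTPRC at 0.347 FPKM.

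Promoters of mitotic genes are known for a pair of short motifs close to the start of transcription: the CCAAT box, bound by the factor NF-Y, and the cell cycle homology region (CHR), bound by the MuvB complexes that repress these genes in resting cells and help to activate them in G2 phase. The stretches below are shown so that the motifs can be read in members that were lower by 2-fold at 48 h (CCNB2, CDCA8, MKI67) and members that were not. Each is the sequence of 150 bases before the RefSeq start of transcription, 5′ to 3′ on the strand of the gene (GRCh38.p14). Capitals mark TTTGAA or TTCGAA (CHR) and CCAAT, on either strand (a reverse match to CCAAT reads ATTGG, one to TTTGAA reads TTCAAA), and neighbouring matches can overlap. The examples were chosen after their values were seen.
CCNB2: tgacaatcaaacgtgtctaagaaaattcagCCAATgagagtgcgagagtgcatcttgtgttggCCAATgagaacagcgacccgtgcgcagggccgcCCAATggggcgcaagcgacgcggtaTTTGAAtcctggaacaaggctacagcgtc
CDCA8: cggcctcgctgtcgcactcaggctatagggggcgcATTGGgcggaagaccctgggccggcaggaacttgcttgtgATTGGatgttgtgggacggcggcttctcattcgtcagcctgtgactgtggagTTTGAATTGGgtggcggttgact
MKI67: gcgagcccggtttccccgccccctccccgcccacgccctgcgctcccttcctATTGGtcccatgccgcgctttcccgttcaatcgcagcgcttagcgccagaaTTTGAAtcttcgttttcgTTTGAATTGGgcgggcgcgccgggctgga
CENPA: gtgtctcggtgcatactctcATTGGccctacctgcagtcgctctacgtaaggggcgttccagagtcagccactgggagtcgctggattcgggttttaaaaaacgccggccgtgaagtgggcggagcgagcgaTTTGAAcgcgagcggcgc
ANLN: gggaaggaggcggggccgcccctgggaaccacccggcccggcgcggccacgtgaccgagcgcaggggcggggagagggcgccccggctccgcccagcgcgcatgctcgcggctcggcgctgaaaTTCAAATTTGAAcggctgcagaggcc
BUB1B: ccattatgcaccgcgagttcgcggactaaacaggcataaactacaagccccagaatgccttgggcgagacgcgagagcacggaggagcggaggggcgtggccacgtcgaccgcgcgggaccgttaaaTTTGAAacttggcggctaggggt
DSN1: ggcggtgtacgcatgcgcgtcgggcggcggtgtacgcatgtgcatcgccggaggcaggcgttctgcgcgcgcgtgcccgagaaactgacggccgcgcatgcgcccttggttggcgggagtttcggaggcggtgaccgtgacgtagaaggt
CCNB2 (chr15:59104996-59105145, plus strand) had 3 CCAAT boxes and 1 CHR in this stretch, and CDCA8 (chr1:37692366-37692515, plus strand) and MKI67 (chr10:128126424-128126573, minus strand) had both motifs, overlapping in 1 place each. CENPA (chr2:26785906-26786055, plus strand) also had both. ANLN (chr7:36389712-36389861, plus strand) and BUB1B (chr15:40160919-40161068, plus strand) had CHR matches (2 and 1) but no CCAAT box, and DSN1 (chr20:36773764-36773913, minus strand) had neither.

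At 24 h the mitotic genes were nearly level between the siRNAs. None of the 43 was higher by 2-fold, against 0.389% of all genes, and none was lower by 2-fold, against 0.244%. The median log2 difference was -0.10, beside -0.07 over all genes, and members ran from -0.31 (SPC24) to 0.37 (CENPA). Slightly lower levels after SAF-A siRNA were common: 35 of 43 members were lower by any amount, against 64.3% of all genes, and 11 were lower with intervals apart, against 18.4%. These 11 were CCNB1, TPX2, MAD2L1, ESPL1, CENPE, CENPF, SPC24, INCENP, KIF11, KIF2C and ASPM. Only CENPA was higher with intervals apart, against 8.66% of all genes, at 131% of its control level. The summed FPKM of the 43 genes was 94.7% of control at this time, while HNRNPU RNA was already at 11.4%.

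At 48 h most of the same genes were lower after SAF-A siRNA. Of the 43 members, 26 were lower by 2-fold, against 18.5% of all genes, and none was higher by 2-fold, against 14.3%. All 26 had intervals apart, which 16.6% of all genes had together with a 2-fold lower level. The median log2 difference was -1.15, beside -0.11 over all genes, and the summed FPKM was 53.3% of control. Lower levels by any amount were seen in 41 members, against 54.1% of all genes, and in 33 the intervals were apart, against 27.1%. Individual members ran from -3.60 (NEK2) to 0.49 (UBE2C). Set against the 8298 genes whose mean FPKM lay within the range of the members, the share lower by 2-fold was 17.1%. Among the 36 members for which the control level would give at least 50 reads in the shallow library, 23 were lower by 2-fold and the median was again -1.15, while 18.5% of all genes meeting that condition were lower by 2-fold; this condition was chosen after seeing the data. On the plain FPKM scale 28 members were below 50% of control, 8 were below 25%, and 7 were above 75%, counts that describe the spread among members and were not made over all genes.

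**Figure D1:**
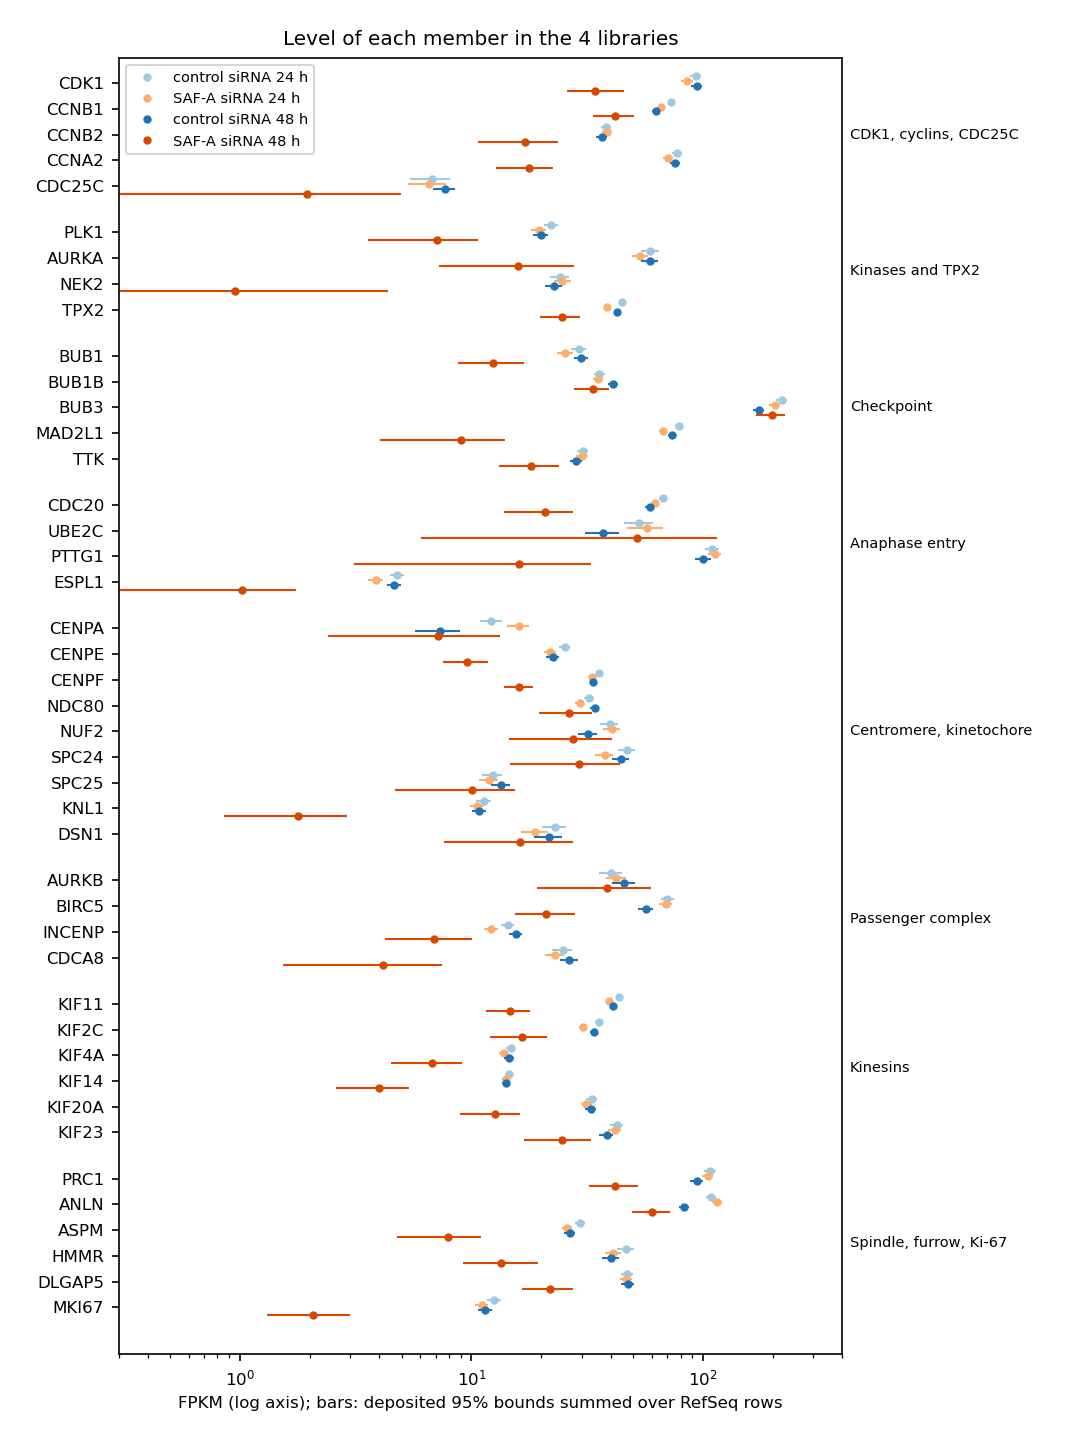
Level of each of the 43 genes in FPKM (log axis) in the 4 libraries, grouped by role; points are levels, bars are the deposited 95% bounds summed over transcripts, and bars that reach the left edge have a lower bound under the axis. The 3 deeper libraries lie close together for most genes, and the SAF-A 48 h level is the lowest for 41 of 43.

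The 3 deeper libraries agree closely with each other on these genes. The highest of the 3 was a median of 1.14 times the lowest, and 41 members stayed within 1.5-fold, against 81% of all genes; the exceptions were CENPA, at 2.18 times, and UBE2C, at 1.55 times. The SAF-A 48 h library was the lowest of the 4 for 41 members, against 46.4% of all genes, and its upper bound lay below the lower bound of each other library for 33, against 20.3%. Across the 43 genes the levels of the control 24 h library ranked almost as in the SAF-A 24 h library (Spearman's rho = 0.99, n = 43 genes) and the control 48 h library (0.98), and less closely between the 48 h libraries (0.76); the shallow library's counting error enters the last value. The 48 h difference had rho = -0.21 with transcript length, 0.06 with the control 48 h level and 0.24 with the 24 h difference, over the same 43 genes. These are descriptions of genes that share all their libraries.

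In the sentences below, 4 levels of a gene are given by time, control before SAF-A siRNA at 24 h and then the same at 48 h, and positions are those of the deposited tables on hg19.

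The cyclins and CDK1, which trigger entry into mitosis, were lower in all 5 cases at 48 h, 4 of them by 2-fold, with a median log2 difference of -1.43 after -0.12 at 24 h. CDK1 (chr10:62538089-62554610), the kinase itself, stood at 92.9, 85.4, 93.9 and 34.1 FPKM. The first 3 libraries were alike and the last was at 36.4% of its control, with an interval of 25.8 to 45.7 against 88.5 to 99.4 FPKM. CCNA2 (chr4:122737599-122745088), cyclin A2, which acts in S phase and early mitosis, stood at 77.3, 70.6, 76.1 and 17.7 FPKM. It had the lowest 48 h difference of the group, -2.04. CCNB1 (chr5:68462837-68474070), cyclin B1, the main mitotic partner of CDK1, stood at 73.0, 65.7, 62.5 and 41.9 FPKM. Its 48 h level was 66.99% of control, the highest share in the group, with intervals still apart (33.5 to 50.2 against 60.4 to 64.6). CCNB2, the other B-type cyclin, was at 46.9% of control and CDC25C, the phosphatase that activates CDK1, at 25.4%, the latter from an estimated 4 reads. Part of CCNA2 overlaps EXOSC9 on the opposite strand over 254 nt of exon, and EXOSC9 was at 44.5 and 47.4 FPKM in the 48 h libraries; whether strand was used in counting is not given in the sources used here.

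Among the mitotic kinases and their activator, 3 of 4 were lower by 2-fold at 48 h (median -1.60, after -0.16 at 24 h). AURKA (chr20:54944445-54967351), the centrosome kinase Aurora A, stood at 59.3, 53.6, 58.9 and 15.8 FPKM, which put the SAF-A 48 h level at 26.9% of control. TPX2 (chr20:30326904-30389603), which binds Aurora A and brings it to the spindle, stood at 44.8, 38.6, 42.4 and 24.7 FPKM. Its 48 h share of control, 58.3%, was the highest of the 4, with intervals apart. NEK2 (chr1:211831599-211848972), a kinase that separates the centrosomes, stood at 24.1, 24.7, 22.7 and 0.953 FPKM. This was the lowest level of any member in any library and the lowest 48 h difference, -3.60; the level comes from an estimated 2 reads, and its interval of 0 to 4.36 FPKM still lies below the control interval of 20.8 to 24.6. PLK1, the kinase of centrosome maturation and cytokinesis, was at 35.6% of control, from an estimated 17 reads.

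The checkpoint genes divided. BUB1 and MAD2L1 were lower by 2-fold at 48 h, TTK was lower with intervals apart but by less than 2-fold, and BUB1B and BUB3 had overlapping intervals. MAD2L1 (chr4:120980579-120988013) encodes MAD2, which binds and holds CDC20, and stood at 78.6, 67.2, 73.6 and 9.01 FPKM. The last value, from an estimated 14 reads, was 12.2% of control, with an interval of 4.01 to 14.0 against 70.7 to 76.5. BUB3 (chr10:124913760-124924886), the adaptor that carries BUB1 and BUBR1 to kinetochores, stood at 219, 204, 174 and 198 FPKM. It was the most abundant member in each library, and its 48 h interval, 169 to 227, overlaps the control interval of 165 to 184. The related kinases BUB1 and BUB1B (BUBR1) differed at 48 h: BUB1 was at 41.5% of control (27.4% to 61.3% from the bounds) and BUB1B at 81.5% (64.1% to 101%). TTK, the MPS1 kinase that starts checkpoint signalling, was at 64.3%.

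Of the genes that open anaphase, 3 of 4 were lower by 2-fold at 48 h (median -1.47). PTTG1 (chr5:159848814-159855751), securin, which keeps separase inactive, stood at 109.6, 112, 100.2 and 15.98 FPKM. At 15.9% of control, from an estimated 12 reads, it was the lowest of the group, and its interval was wide (3.10 to 32.7 FPKM). It shares reads with near-identical copies, so its level is uncertain: PTTG2 was at 16.1 and 8.84 FPKM and PTTG3P at 22.3 and 4.06 in the control and SAF-A 48 h libraries. CDC20 (chr1:43824626-43828873), the activator of the anaphase-promoting complex that the checkpoint inhibits, stood at 67.2, 62.4, 58.8 and 20.7 FPKM, 35.2% of control at 48 h. UBE2C (chr20:44441215-44445596), the ubiquitin-conjugating enzyme of that complex, stood at 52.9, 57.1, 36.8 and 52.1 FPKM. Its 48 h level was 141% of control, but the interval of 6.06 to 115 FPKM, summed over 8 short transcripts, covers the other 3 values. ESPL1, separase, was at 22.2% of control at a low level (4.62 and 1.02 FPKM, the latter from an estimated 8 reads).

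The centromere and kinetochore genes were the group with the lowest share of members, 3 of 9, lower by 2-fold at 48 h (median -0.40). All 4 subunits of the NDC80 complex, the main microtubule-binding element of the kinetochore, had overlapping intervals, while 27.1% of all genes were lower with intervals apart. NUF2 was at 86.4% of control (41.7% to 141% from the bounds) and NDC80 at 77.2% (54.8% to 102%). SPC25 was at 74.9% (31.8% to 127%, an estimated 14 reads) and SPC24 at 65.8% (30.3% to 108%, 16 reads). The bounds of NUF2, SPC25 and SPC24 thus include a 2-fold lower level. SPC24 (chr19:11257831-11266484) stood at 46.9, 37.6, 44.4 and 29.2 FPKM, with the lowest 24 h difference of all members, -0.31. NUF2 (chr1:163291723-163325553) stood at 39.5, 40.4, 31.9 and 27.6 FPKM. DSN1, a subunit of the neighbouring MIS12 complex, was at 74.9%. KNL1 (chr15:40886447-40954881), the scaffold that binds both complexes and recruits BUB1, stood in contrast at 11.3, 10.6, 10.8 and 1.78 FPKM. At 16.5% of control (7.38% to 29.0%, from an estimated 16 reads), it was the lowest of the group. CENPE, a kinesin of the outer kinetochore, and CENPF, a large coiled-coil protein there, were at 42.5% and 48.1%. CENPA (chr2:27008882-27017455), the histone H3 variant that marks centromeres, stood at 12.2, 15.97, 7.33 and 7.17 FPKM. Its level was nearly equal between the siRNAs at 48 h (97.9%), but the bounds run from 26.9% to 233%. Both 48 h levels were below both 24 h levels. The SAF-A 48 h value rests on an estimated 10 reads, and its interval of 2.41 to 13.3 FPKM overlaps that of the control 24 h library (10.8 to 13.5).

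The passenger complex moves from centromeres to the midzone, correcting attachments and then controlling cytokinesis, and 3 of its 4 genes were lower by 2-fold at 48 h (median -1.23). BIRC5 (chr17:76210277-76221716), survivin, stood at 70.2, 69.3, 56.6 and 21.0 FPKM, 37.1% of control at 48 h. CDCA8 (chr1:38158073-38175391), borealin, which with survivin targets the complex to centromeres, stood at 24.8, 22.9, 26.5 and 4.14 FPKM. Its 15.6% of control, from an estimated 11 reads, was the lowest share of the complex. INCENP, the scaffold, was at 44.3%. AURKB (chr17:8108049-8113944), the catalytic subunit, stood at 40.1, 42.3, 45.6 and 38.7 FPKM. At 84.8% of control (37.8% to 148% from the bounds), its intervals overlapped, unlike those of its 3 partners.

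All 6 kinesins were lower at 48 h with intervals apart, against 27.1% of all genes. By 2-fold 3 were lower, against 18.5% (median of the 6 -1.15, after -0.09 at 24 h). KIF11 (chr10:94352825-94415152), the Eg5 motor that pushes the spindle poles apart, stood at 43.6, 39.2, 40.7 and 14.7 FPKM, 36.0% of control. KIF23 (chr15:69706585-69740766), the motor of the centralspindlin complex, stood at 42.3, 41.7, 38.3 and 24.7 FPKM, the highest share of the group at 64.3%. KIF14 (chr1:200520625-200589862), which acts in cytokinesis, stood at 14.5, 14.1, 14.1 and 3.99 FPKM, the lowest share at 28.3%. KIF20A, which carries the passenger complex to the midzone, was at 38.5%. KIF4A, a chromosome-bound kinesin, was at 46.7% and KIF2C, the microtubule depolymerase MCAK, at 49.1%; on the log2(FPKM + 1) scale both fell just short of 2-fold. KIF4A also shares reads with its copy KIF4B, which was at 3.47 and 0.487 FPKM at 48 h.

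The remaining spindle and cytokinesis genes, with the proliferation marker MKI67, were lower by 2-fold at 48 h in 5 of 6 cases (median -1.33). PRC1 (chr15:91509268-91537881), which bundles midzone microtubules, stood at 107, 105, 94.1 and 41.8 FPKM, 44.5% of control. ANLN (chr7:36429415-36493401), anillin, the scaffold of the contractile ring, stood at 108, 115, 82.8 and 60.4 FPKM. Its 72.9% of control was the highest share of the group, with intervals apart, and it also dropped by 0.38 on the log2 scale between the control libraries. MKI67 (chr10:129894925-129924468), which coats mitotic chromosomes as Ki-67, stood at 12.5, 11.1, 11.5 and 2.07 FPKM. That was 18.0% of control, with an interval of 1.30 to 2.99 against 10.7 to 12.3. ASPM, which acts at spindle poles, was at 29.7%, HMMR, a spindle assembly factor, at 33.5% and DLGAP5, which stabilises kinetochore fibres, at 46.2%.

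**Figure D2:**
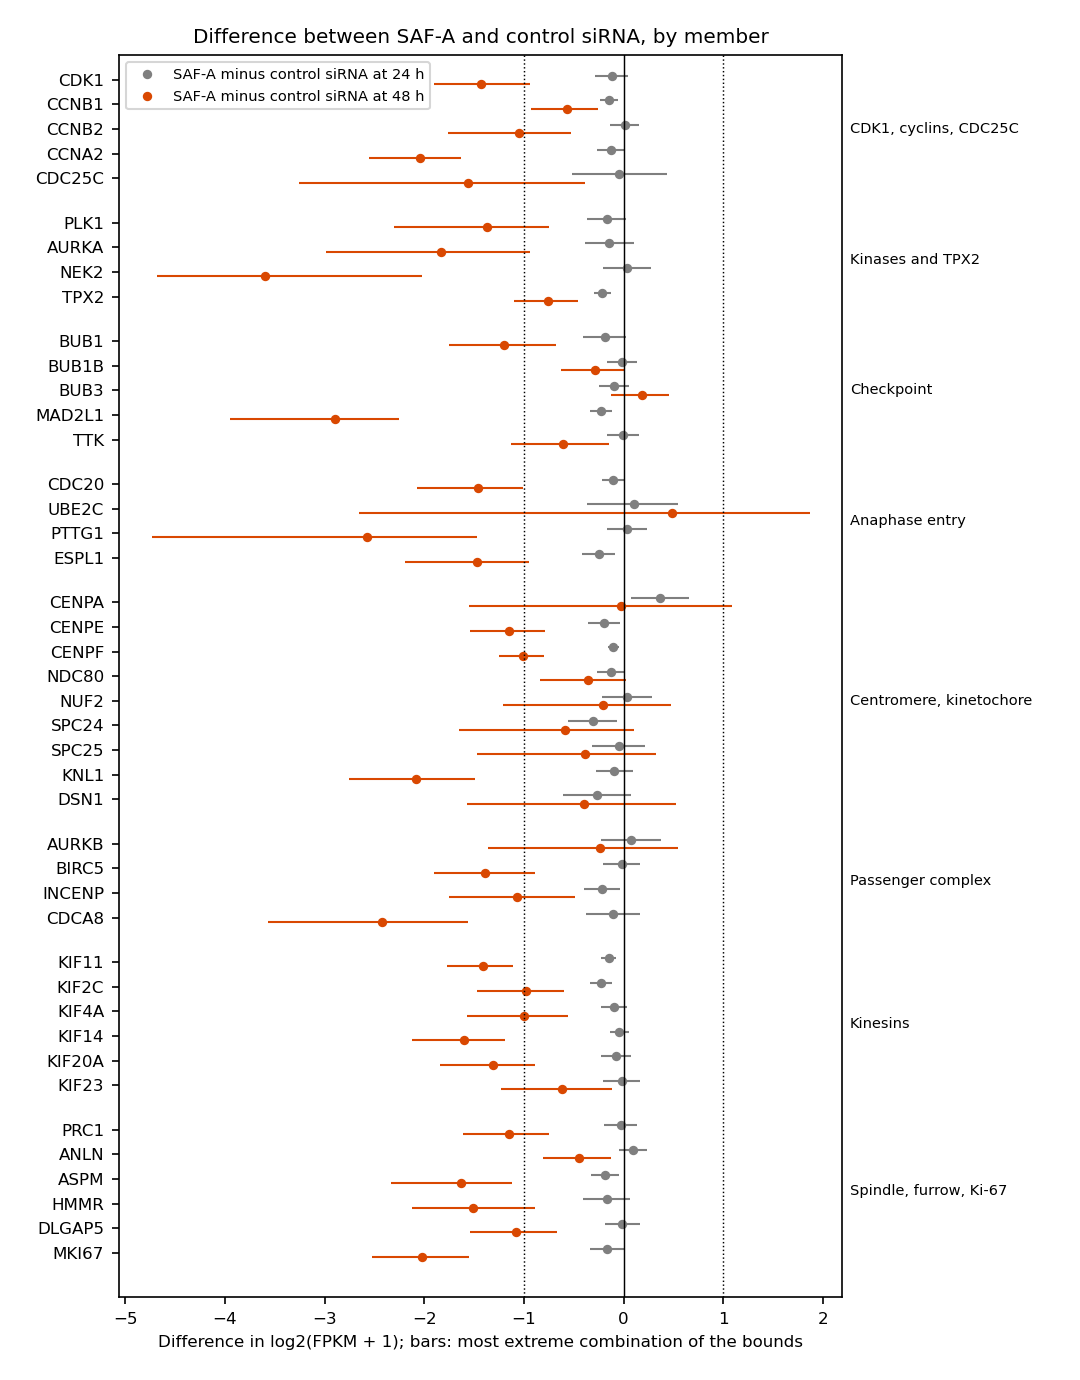
Difference in log2(FPKM + 1) between SAF-A and control siRNA for each of the 43 genes at 24 h (grey) and 48 h (orange); bars span the most extreme differences that the deposited bounds allow, and dotted lines mark 2-fold. The 24 h points lie between -0.31 and 0.37 and the 48 h points between -3.60 and 0.49.

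Between the control libraries, from 24 h to 48 h, the members differed little. None was higher by 2-fold, against 0.561% of all genes, and none was lower by 2-fold, against 0.425%. The median was -0.08 beside 0.03 over all genes, and 33 of 43 were lower by any amount, against 43.7%. CENPA had the lowest difference, -0.66, followed by UBE2C at -0.51, and BUB1B had the highest, 0.20. Under SAF-A siRNA all 43 members were lower at 48 h than at 24 h, against 50.6% of all genes. By 2-fold, 24 were lower, against 16% of all genes, and none was higher, against 15.5%. The median was -1.12 beside -0.01, and members ran from -3.72 (NEK2) to -0.05 (BUB3). This comparison and the one between siRNAs at 48 h share the SAF-A 48 h library, so they do not stand for each other.

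**Figure D3:**
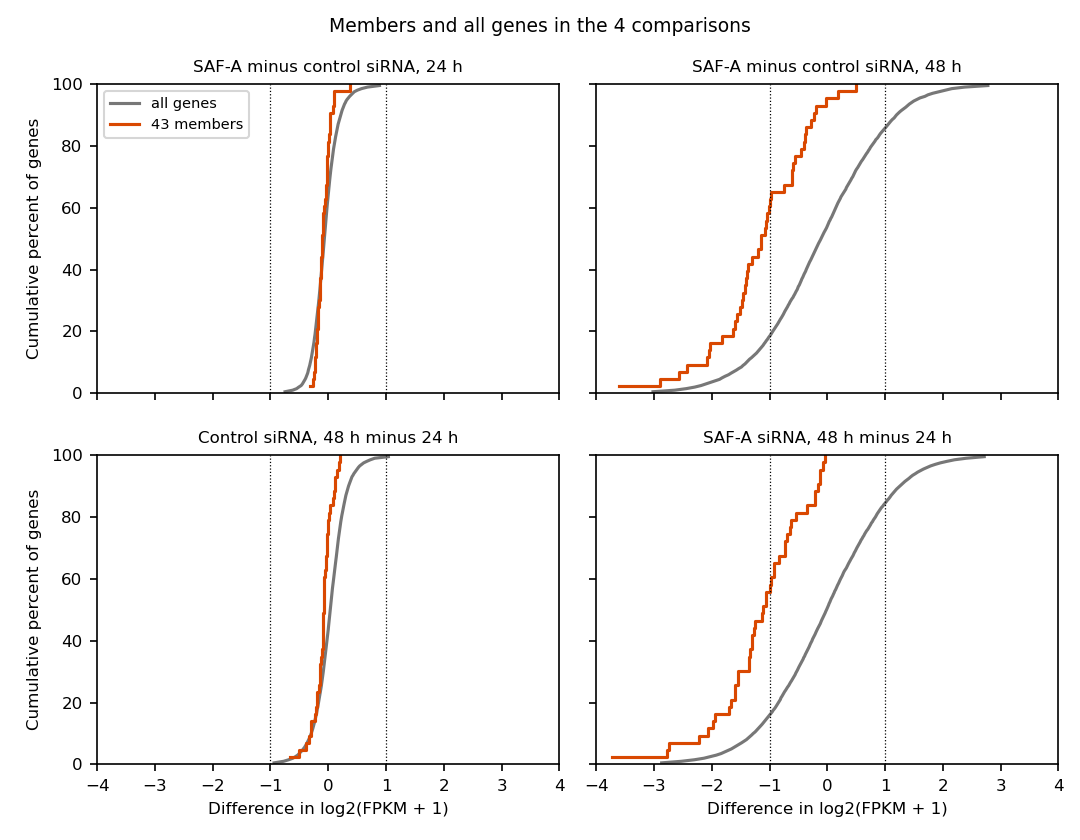
Cumulative percent of genes by difference in log2(FPKM + 1) in the 4 comparisons, for the 43 members (orange) and the 11053 genes over the filter (grey); dotted lines mark 2-fold. The curves lie close at 24 h and between the control libraries (medians -0.10 and -0.07, then -0.08 and 0.03) and apart in both comparisons with the SAF-A 48 h library (medians -1.15 and -0.11, then -1.12 and -0.01).

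The motifs shown above were counted in the RefSeq promoter windows, 250 bases before to 50 after each start, where 36 of the 43 members had an entry. AURKA, KNL1, BUB3, BIRC5, TPX2, UBE2C and TTK had none. CCAAT, on either strand, was found for 29 of the 36 members (80.6%), against 44.5% of 8834 symbols over the filter and 34.6% of all 35116 windows. Boxes numbered 2 or more for 19 members (52.8%), against 17.3% of those symbols. A CHR (TTTGAA or TTCGAA, either strand) was found for 26 members (72.2%), against 15.7% of those symbols and 16.4% of all windows, and both motifs for 22, against 6.77% of symbols. At 48 h, 22 of the 29 members with a CCAAT box were lower by 2-fold (median -1.37), and of the 7 without one, only CENPE was (median -0.40). Those 7 were NUF2, NDC80, DSN1 and CENPE, all of the centromere and kinetochore group, with BUB1B, ANLN and KIF2C (-0.98). The other 7 members with a box were under 2-fold lower as well: CENPA (-0.03), AURKB (-0.23), SPC25 (-0.38), CCNB1 (-0.57), SPC24 (-0.59), KIF23 (-0.62) and KIF4A (-0.997). The NDC80 complex thus crosses the split, since NUF2 and NDC80 had no box, SPC25 had 2 and SPC24 had 3, and none of the 4 was lower by 2-fold. For the CHR the split was smaller, 18 of 26 with it (median -1.18) and 5 of 10 without (median -1.07). At 24 h the medians with and without a CCAAT box were -0.11 and -0.13. A letter match is not a bound site, several members have more than 1 start, and no binding was measured here.

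**Figure D4:**
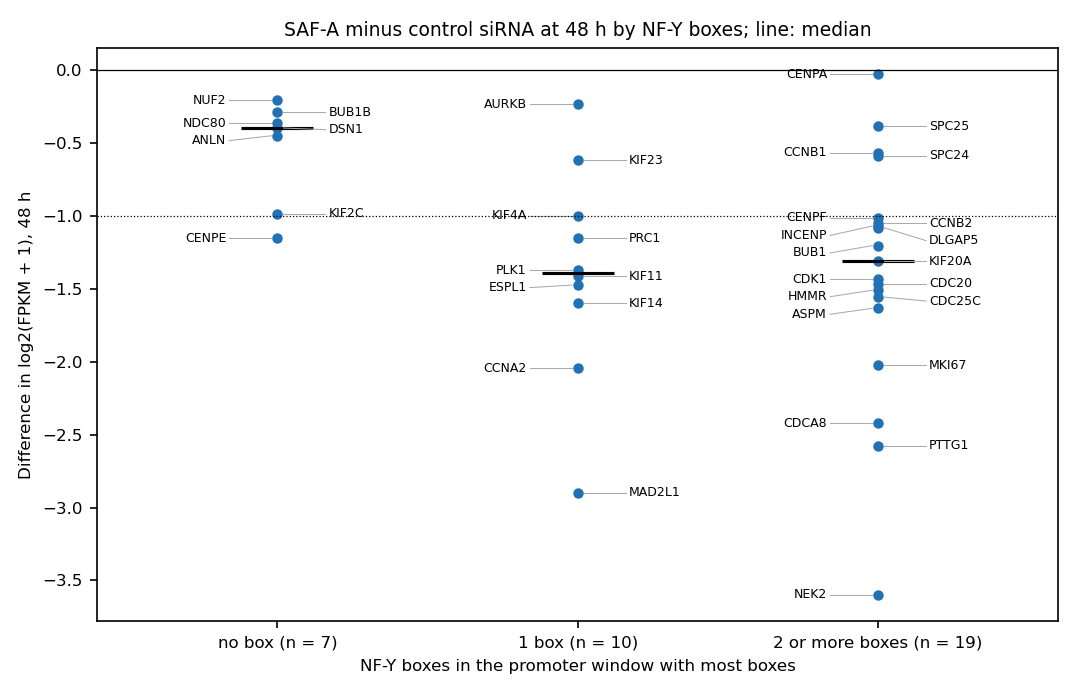
Difference in log2(FPKM + 1) between SAF-A and control siRNA at 48 h for the 36 members with a promoter entry, by the number of NF-Y boxes in the window that holds most; points are genes, thick lines are medians and the dotted line marks 2-fold lower. Of 7 genes without a box 1 lies below the dotted line, against 7 of 10 with 1 box and 15 of 19 with 2 or more. The medians are -0.40 without a box, -1.39 with 1 box and -1.31 with 2 or more, so they do not fall further from 1 box to more.

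In 67 further mitotic genes outside the 43, the 48 h median was -1.15 as well, with 40 lower by 2-fold, against 18.5% of all genes, and 2 higher, against 14.3%. At 24 h the median was -0.15, with 0 lower, against 0.244%, and 2 higher, against 0.389%. The most abundant were CKS2, a CDK-binding subunit, at 179, 192, 197 and 84.4 FPKM, and CEP55, an abscission factor, at 85.9, 79.5, 72.9 and 28.5. KIFC1, a minus-end kinesin, had the lowest 48 h difference among those averaging 5 FPKM or more (20.6, 17.8, 23.1 and 1.98 FPKM, the last from an estimated 6 reads). PMF1, a MIS12 complex subunit, had the highest among them (26.4, 30.1, 25.1 and 59.8 FPKM). The CCAAT split of the members was smaller in these genes: 23 of 38 with a box were lower by 2-fold at 48 h, and 7 of 14 without. The CHR split was larger, 24 of 35 with it and 6 of 17 without. Over all genes with an entry, 18.8% with a CCAAT box and 16.5% without, and 21.3% with a CHR and 16.8% without, were lower by 2-fold.

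The anaphase-promoting complex and its partners, 16 genes whose proteins act in mitosis, most of them present through much of the cycle, went both ways at 48 h. Of the 16, 8 were higher and 8 lower by any amount, against 54.1% of all genes lower. With intervals apart 4 were higher and 3 lower, against 2508 of 11053 genes higher and 27.1% lower. These counts are near the shares of all genes, and the median of 0.00 does not mean level genes. By 2-fold 2 were lower, against 18.5% of all genes, and 1 was higher, against 14.3%; at 24 h none was in either direction, against 0.244% and 0.389%. ANAPC5, a scaffold subunit, stood at 62.5, 60.05, 58.5 and 113 FPKM, and CDC23, another subunit, at 8.11, 14.6, 6.54 and 17.5, the highest 48 h difference (1.30). CDC23 overlaps KIF20A on the opposite strand over 68 nt of exon. UBE2S, the enzyme that extends ubiquitin chains for the complex, had the lowest (84.0, 73.6, 66.1 and 15.96 FPKM, the last from an estimated 19 reads).

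Of 18 genes that control transcription of mitotic genes (MuvB, E2F and NF-Y subunits, FOXM1, MYBL2, and the upstream p53 and p21), 4 were lower by 2-fold at 48 h, against 18.5% of all genes, and 1 was higher, against 14.3%, with a median of -0.53; none passed 2-fold at 24 h, against 0.244% and 0.389%. The share lower by 2-fold is thus near that of all genes, though the median lay below the -0.11 of all genes. Lower levels by any amount were seen in 12 of 18, against 54.1% of all genes. With intervals apart 7 were lower, against 27.1%, and 1 was higher, against 2508 of 11053 genes. The 4 lower by 2-fold were LIN9, LIN52 (an estimated 2 reads in the SAF-A 48 h library), MYBL2 (12 reads) and FOXM1 (11 reads). The 1 higher by 2-fold was LIN37, from an estimated 8 reads, with overlapping intervals. LIN9, a MuvB subunit, stood at 7.91, 5.53, 6.83 and 0.859 FPKM, with an estimated 3 reads in the last library. TFDP1, the partner of E2F factors, stood at 50.5, 51.9, 34.6 and 16.97 FPKM. CDKN1A, the CDK inhibitor p21, stood at 123, 141, 138 and 261 FPKM and had a 48 h difference of 0.91.

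Transcript use could be compared for 12 members, those with several RefSeq transcripts, at least 5 FPKM in every library and at least 50 estimated reads in the shallowest. At 24 h none of the 12 had at least 30 percentage points of its FPKM on other transcripts, against 6.02% of 2176 genes meeting the same condition. At 48 h 5 did, against 33.2%. With 12 genes this is near the share of all genes, so the shifts below are described for what they do to the sums of the genes and not as particular to mitotic genes. BUB3 has most reads. Its transcripts NM_001007793 (1537 nt) and NM_004725 (2764 nt) were close to equal in the first 3 libraries, at 108, 90.4 and 95.9 FPKM for the shorter and 111, 114 and 78.2 FPKM for the longer. In the SAF-A 48 h library they stood at 182 and 15.7 FPKM, an estimated 296 and 49 reads, a shift of 37.0 percentage points within a near-equal sum. For ANLN, transcript NM_018685 (4788 nt) was at 64.9 and 24.9 FPKM in the 48 h libraries and NM_001284301 (4677 nt) at 17.9 and 35.5. For PRC1, NM_199413 was at 24.9 and 38.0 FPKM, and NM_003981 at 53.6 and 3.86. PRC1 was thus lower at 48 h as a gene, while NM_199413, the transcript with the highest mean over the 4 libraries though not the highest in the control 48 h library, was higher (0.59). The transcripts of ANLN and of PRC1 are close in length and share most of their sequence, and 50-base reads divide between them only where they differ. Those of BUB3, at 1537 and 2764 nt, differ over a longer stretch.

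**Figure D5:**
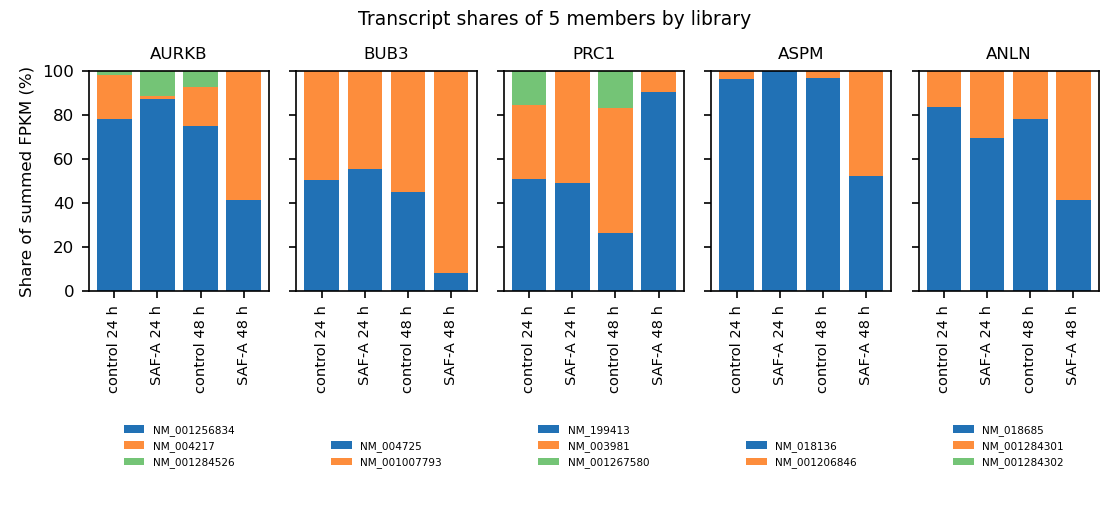
Share of summed FPKM (%) carried by each RefSeq transcript of AURKB, BUB3, PRC1, ASPM and ANLN in the 4 libraries; colours are transcripts, named under each panel. In the SAF-A 48 h library the shares stand 37.0 to 64.3 percentage points from those of the control 48 h library.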

How the data were processed

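RNA from 4 RPE1 cultures, 1 per group, was sequenced as 50-base single-end reads after ribosomal RNA removal, per the labels' protocols. Samples were grouped by siRNA and time in the labels. The authors deposited FPKM with 95% bounds and coverage for 47338 RefSeq transcripts per library, on hg19 per the submitters' processing notes, which name TopHat2 2.0.10, Bowtie2 2.1.0 and Cufflinks 2.2.1 without saying which step each did. The deposited FPKM and coverage values were used as they stand, and no read counts were used. The deposited transcript annotation, whose attribute column holds transcript identifiers, gave exon positions and lengths; strand use is not given in the sources used here.

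FPKM was summed per symbol through RefSeq names (GRCh38.p14, names only), matching 97.1% of rows. Mapped reads were derived from coverage over FPKM, and reads per transcript were estimated from FPKM, length and that depth, assuming fragments of 200 ± 80 nt. Differences used log2(FPKM + 1) without a test, since each group holds 1 library; the calculation was tested on simulated data. Promoter sequences are from RefSeq (GRCh38.p14). Python 3.11.15, pandas 2.3.3 and numpy 2.4.6 were used. In each of 8 role groups, values are given for the 2 members highest in the control 24 h library and for the lowest and highest 48 h difference; from the other lists, for the 2 highest means and the lowest and highest 48 h difference among genes averaging 5 FPKM or more. Other genes named with values or as members of small counts were chosen after their values were seen. Alternatives covered pseudocount, scaling, centring, filter, threshold, interval overlap and the choice of transcript. The members and lists were chosen with earlier results of these data known.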

Additional observations from a re-analysis of the deposited data

How the results depend on the processing

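The counts and medians of the 43 members were recomputed under 10 alternatives, under which the 48 h median stayed between -1.40 and -1.12. The number lower by the fold threshold in use lay between 23 (of 36) and 32 (at 1.5-fold in place of 2-fold), and the number higher stayed at 0. Of all genes, 31% had a 48 h difference of -0.595 or lower, just beyond 1.5-fold. The 24 h median of -0.10 moved to -0.037 when centred on genes of at least 5 FPKM, to -0.15 when rescaled over genes of at least 300 nt, and to -0.28 as TPM; TPM moved the median of all genes to -0.23 at the same time, and the rescaling moved it to -0.34 at 48 h. The control median with time became -0.0017 as TPM, from -0.08. With the highest RefSeq transcript alone, 1 member was higher by 2-fold with time under SAF-A siRNA and 2 were lower under control siRNA. At 1.5-fold 1 was lower under control siRNA, and each of these counts was 0 otherwise. The shares of all genes for these counts are not given, so they are not read as results. PRC1 reversed at 48 h, from -1.15 to 0.59, when read from the transcript with the highest mean over the libraries alone. That choice leaves out NM_003981 and NM_001267580, the transcripts that were lower. No paired analysis was possible because each group holds 1 library. For the same reason no library could be left out, and the 48 h results cannot be had without the SAF-A library of 1216740 reads, whose depth limits every value from under 20 estimated reads.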

Other observations

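Genes of the G1 to S transition and of DNA replication, a list of 35 outside the mitotic genes, were lower after SAF-A siRNA at both times. At 24 h 33 of 35 were lower by any amount, 24 of them with intervals apart, against 64.3% and 18.4% of all genes, and the median was -0.28; no gene of the list passed 2-fold, against 0.244% lower. For the 43 mitotic genes the same median was -0.10 and 11 were lower with intervals apart. At 48 h 15 of 35 were lower by 2-fold, against 18.5% of all genes, and the median was -0.89, beside -1.15 for the mitotic genes. PCNA, the sliding clamp of DNA polymerases, was the most abundant, with 212 and 193 FPKM in the control libraries (24 h, 48 h) and 174 and 156 FPKM in the SAF-A libraries. MCM7, a subunit of the replicative helicase, had 118 and 115 FPKM in the control and 92.9 and 63.8 FPKM in the SAF-A libraries. MCM10, which activates that helicase, had the lowest 48 h difference (13.4 FPKM in control and 0.757 after SAF-A siRNA, an estimated 4 reads), and RFC5, a clamp loader subunit, the highest (6.94 and 10.4 FPKM). The difference between the lists was not tested.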
